A study of Mus musculus with 6 samples.

Results

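Cytokines, chemokines and the NF-κB pathway were followed in primary cultures of mouse brain exposed to 1,25-dihydroxyvitamin D3 (1,25D), the hormonal form of vitamin D. A list of 47 inflammatory genes was given by name, without use of measured values, and 43 of them had a row with 1 gene symbol among the 19938 genes tested. Ptgs1, Nfkb1, Il1r1 and C3 had no such row and are not analysed here. Only Socs3 had more than 1 row, and its brighter row was taken, with a log2 difference of -0.10 against 0.07 for the other.

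The cultures were started from the brains of OF1 mouse embryos at embryonic day 17 and were differentiated in fetal calf serum into mixed neurons and glia. Both groups were then kept in serum-free medium without growth factors. The 3 control cultures received vehicle (their treatment label reads untreated) and the 3 treated cultures 1,25D at 10 nM, and no inflammatory stimulus is named for either group. The sources used here do not give the hours of exposure or the number of embryos per culture. The labels call the replicates biological, but nothing in them says that these came from separate litters. The p-values set the group difference against the spread between these 6 arrays. Whether that spread includes the spread between litters is not known. In a mixed culture, fewer cells of a type and less RNA per cell cannot be told apart.

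NF-κB is a family of transcription factors (RelA, RelB, c-Rel and the products of Nfkb1 and Nfkb2) that waits in the cytoplasm bound to inhibitors such as IκBα. Signals from Toll-like receptors and from the receptors of tumour necrosis factor (TNF) and interleukin-1 (IL-1) destroy the inhibitor and let the factor enter the nucleus. There it turns on cytokines, chemokines, adhesion molecules and its own brakes, IκBα and A20, the product of Tnfaip3. In brain cultures microglia and astrocytes are the usual sources of these mediators, and in immune cells 1,25D is known to restrain this pathway.

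To show where NF-κB could act on members described below, the 250 bases before the annotated gene start were searched on both strands for the 10-base κB motif, taken as GGG, a purine, any 2 bases, 2 pyrimidines and CC. Matches may overlap. RefSeq promoters (GRCm38.p6) were found for 33 of the 43 genes, and 11 of these (33.3%) held the motif, against 8.23% of 27025 genes in the table. Nos2, Ccl2, Ccl4, Ccl5, Ccl7, Cxcl5, Vcam1, Relb, Tlr4 and C4b had no entry. The list was made of inflammatory and NF-κB pathway genes, so its higher share of κB motifs is background and not a result of these cultures. The vitamin D response element of the DR3 type, a pair of 6-base half-sites spaced by 3 bases, was searched on both strands. It matched in 0 of the 33 genes and in 0.255% of the same 27025 genes. At so low a share, 0 of 33 cannot set the members apart, and sequence beyond the 250 bases was not searched. A match is a description of letters and not a binding site, and a missing match is not a missing site. The 5 members with a motif that are described in full are shown 5′ to 3′ on the gene's strand, with the motif in capitals and the last base next to the gene start.

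Nfkbia, chr12:55492648-55492897, minus strand: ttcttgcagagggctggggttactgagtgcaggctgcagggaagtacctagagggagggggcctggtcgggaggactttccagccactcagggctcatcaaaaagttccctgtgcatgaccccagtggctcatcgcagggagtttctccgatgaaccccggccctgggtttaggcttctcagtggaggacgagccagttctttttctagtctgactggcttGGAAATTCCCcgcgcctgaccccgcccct
Tnfaip3, chr10:19015411-19015660, minus strand: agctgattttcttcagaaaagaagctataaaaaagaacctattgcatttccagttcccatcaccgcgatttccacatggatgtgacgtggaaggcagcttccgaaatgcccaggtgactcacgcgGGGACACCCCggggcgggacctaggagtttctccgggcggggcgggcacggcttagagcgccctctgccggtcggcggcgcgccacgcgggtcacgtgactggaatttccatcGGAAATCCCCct
Cxcl10, chr5:92348890-92349139, minus strand: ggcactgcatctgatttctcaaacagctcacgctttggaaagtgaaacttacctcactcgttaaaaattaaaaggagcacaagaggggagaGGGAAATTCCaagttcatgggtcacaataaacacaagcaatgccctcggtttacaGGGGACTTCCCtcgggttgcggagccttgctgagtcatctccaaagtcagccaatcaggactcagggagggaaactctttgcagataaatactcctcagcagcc
Il6, chr5:30012864-30013113, plus strand: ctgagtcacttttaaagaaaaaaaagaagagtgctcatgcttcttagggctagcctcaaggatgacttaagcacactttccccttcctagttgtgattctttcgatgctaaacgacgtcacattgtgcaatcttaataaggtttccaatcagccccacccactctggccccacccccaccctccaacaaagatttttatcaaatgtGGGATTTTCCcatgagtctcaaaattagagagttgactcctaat
Csf1, chr3:107760470-107760719, minus strand: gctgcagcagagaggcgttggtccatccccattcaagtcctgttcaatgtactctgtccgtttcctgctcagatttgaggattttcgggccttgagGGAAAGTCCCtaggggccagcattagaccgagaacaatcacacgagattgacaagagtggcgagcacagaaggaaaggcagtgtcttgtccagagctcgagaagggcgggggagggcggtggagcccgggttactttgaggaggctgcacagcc

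In Cxcl10 the stretches began 159 and 104 bases before the start, and the second holds 2 overlapping matches. In Tnfaip3 they began 125 and 12 bases before the start of the promoter shown, and its other listed promoter held none. The single stretch began 29 bases before the start in Nfkbia, 44 in Il6 and 154 in Csf1. The other 6 genes with the motif were Tlr2, Tlr3, Cxcl1, Cxcl2, Lif and Nfkb2.

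No inflammatory gene was called different after 1,25D. None of the 43 passed as higher or lower (limma, adjusted p under 0.05 over all genes), where 0.0251% of all genes passed (5 genes). With the replicate number as a block, none passed either, against 0.0903% of all genes (18 genes). The lowest adjusted p of a member was 0.25, for Il33 with the block, and without the block every member had an adjusted p of 1.00. At an unadjusted p under 0.05 there were 2 members without the block (4.65%, Il33 and Cxcl12) against 1.48% of all genes, and 5 with it (11.6%, with Nfkbia, Tnfaip3 and Cxcl10 added) against 5.78%. The mean log2 difference was above 0 for 20 members and below 0 for 23, with a median of -0.02, against 0.01 over all genes.

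The precision bounds how far these genes could have moved. The 95% interval of the log2 difference from limma, for each gene alone, lay inside a 2-fold change in either direction for 39 of the 43 genes and inside a 1.5-fold change for 35. The 4 genes whose interval reached past 2-fold were Il33, Ptgs2, Cxcl10 and Vcam1. With the replicate block the intervals lay inside 2-fold for 42 genes, all but Vcam1, and inside 1.5-fold for 40, all but Vcam1, Il33 and Ptgs2. The blocked interval ran from 0.40 to 0.96 for Il33, from -0.03 to 0.62 for Ptgs2, from -0.58 to -0.08 for Cxcl10 and from -1.17 to 0.15 for Vcam1. A mean difference of 1.5-fold or more was found for 1 member (Il33) and for 0.492% of all genes. These values are log2 intensities after robust multi-array averaging, which compresses the differences of dim genes, and 11 members lay in the lowest 25% of genes by mean intensity, among them Tnf, Il1a, Il1b, Il6 and Csf2. This averaging gives no call of whether a gene was detected.

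**Figure D1:**
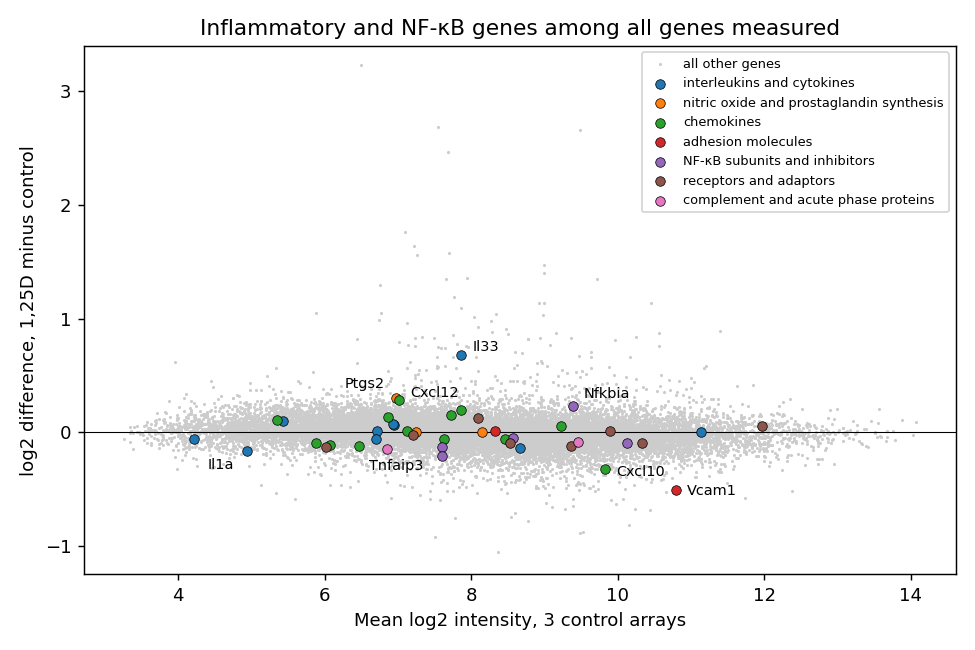
Each point is 1 gene, with the mean log2 intensity of the 3 control arrays on the x axis and the log2 difference, 1,25D minus control, on the y axis. Grey points are all other genes and coloured points the 43 inflammatory genes by functional group; Il33 at 0.68 and Vcam1 at -0.51 are the extremes of the coloured points.

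Among the cytokines, 0 of 10 passed, 5 had higher and 5 lower means, and the median log2 difference was 0.00. Il33 encodes interleukin-33, a nuclear protein released by damaged cells that acts on innate lymphoid cells, mast cells and microglia. Its log2 intensity was 8.20, 7.80 and 7.60 in control cultures 1, 2 and 3 and 8.73, 8.81 and 8.10 in treated cultures 1, 2 and 3. Treated arrays were higher in each of the 3 pairs, by 0.54, 1.01 and 0.50, although the lowest treated array lay below the highest control. The mean was 1.60-fold higher, which is 0.68 ± 0.22 on the log2 scale (SE, n = 3 each, 95% interval 0.16 to 1.20, adjusted p = 1.00 by limma, and 0.25 with the block). With 1 array left out the difference stayed between 0.55 and 0.91. With the block and 1 pair left out its adjusted p was 0.10 without pair 1, 1.00 without pair 2 and 0.098 without pair 3, none of which passed.

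Il1a, the alpha form of interleukin-1, had 4.96, 4.83 and 5.02 in controls 1, 2 and 3 and 4.81, 4.68 and 4.82 in treated cultures 1, 2 and 3. Every treated array was below every control, but by little. The log2 difference was -0.17 ± 0.10 (SE) in a gene within the lowest 25% by intensity. Members whose treated arrays all lay below the controls numbered 1 of 43 (2.33%), against 1.52% of all genes.

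Il1b, the beta form made by activated microglia, had 7.24, 6.31 and 6.53 in controls and 6.86, 6.65 and 6.40 in treated cultures. Control 1 was the highest of the 6 arrays and control 2 the lowest, so the controls spanned all treated values. Its log2 difference was -0.06 ± 0.24 (SE), and the pairs differed by -0.38, 0.33 and -0.14.

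Tnf, the founding cytokine of its family and a main activator of NF-κB, had 6.93, 6.67 and 6.53 in controls and 6.82, 6.78 and 6.56 in treated cultures. The groups overlapped fully, with a log2 difference of 0.01 ± 0.13 (SE, 95% interval -0.30 to 0.32). That sign turned under quantile normalisation (-0.03), median centring (-0.01) and array weights (-0.01).

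Il6, a cytokine of the acute phase, had 4.39, 4.06 and 4.20 in controls and 4.51, 3.83 and 4.13 in treated cultures. Its difference was -0.06 ± 0.18 (SE), and the highest and the lowest of the 6 arrays were both treated. Csf1, the growth factor on which microglia depend, had 11.06, 11.37 and 10.99 in controls and 10.82, 11.31 and 11.29 in treated cultures. Its pairs differed by -0.24, -0.06 and 0.30, which average to -0.00 ± 0.17 (SE).

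The remaining cytokines had log2 differences between -0.14 (Il18, a cytokine matured by the inflammasome) and 0.10 (Csf2, a myeloid growth factor). Il12b, a subunit shared by interleukins 12 and 23, had 0.06 and Lif, a cytokine of the interleukin-6 family, 0.07.

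Nos2, inducible nitric oxide synthase, is the classic read-out of activated glia. It had 7.30, 7.35 and 7.09 in controls and 7.35, 7.27 and 7.14 in treated cultures. The groups overlapped fully, and the log2 difference of 0.01 ± 0.11 (SE) had a 95% interval from -0.25 to 0.26. Its sign turned under quantile normalisation (-0.01), median centring (-0.02) and array weights (-0.01). Ptgs2, which encodes the inducible cyclooxygenase COX-2, had 7.00, 6.29 and 7.62 in controls and 7.57, 6.72 and 7.51 in treated cultures. Replicate 2 was the lowest in both groups, and the difference was 0.30 ± 0.35 (SE, 95% interval -0.52 to 1.11). Ptges, the prostaglandin E synthase that works with COX-2, had a difference of 0.00 ± 0.19 (SE). Of these 3 genes 0 passed.

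Among the 13 chemokines 0 passed, 7 had higher and 6 lower means, and the median log2 difference was 0.01. Cxcl12, or SDF-1, is a chemokine of stromal cells and meninges that guides migrating neurons. It had 7.12, 7.00 and 6.94 in controls and 7.32, 7.30 and 7.27 in treated cultures. Every treated array lay above every control, and the pairs differed by 0.20, 0.31 and 0.34. The mean was 1.21-fold higher, a log2 difference of 0.28 ± 0.09 (SE, 95% interval 0.06 to 0.50, adjusted p = 1.00 by limma, and 0.64 with the block). Members whose treated arrays all lay above the controls numbered 1 of 43 (2.33%), against 2.63% of all genes. With 1 array left out the difference of Cxcl12 stayed between 0.24 and 0.33.

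Cxcl10, an attractant of T cells that interferons induce, had 9.48, 10.25 and 9.77 in controls and 8.90, 10.13 and 9.50 in treated cultures. The treated culture was the lower one in each pair, by 0.58, 0.13 and 0.27, while both arrays of replicate 2 stood above the other 4. Its mean was 1.25-fold lower, a log2 difference of -0.33 ± 0.31 (SE, 95% interval -1.06 to 0.40, adjusted p = 1.00 by limma, and 0.73 with the block). With 1 array left out the difference ran from -0.64 to -0.02. Among 22 measured interferon-induced genes beside it, 0 passed and 14 had lower means, with a median of -0.02, where 9375 of all 19938 genes had lower means. Of these 22, 7 were lower in all 3 pairs (31.8%), against 2200 of all 19938 genes, and 0 were higher, against 2943. All treated arrays lay below the controls for 2 of the 22 (9.09%, against 1.52% of all genes) and above them for 0. With the block 4 had an unadjusted p under 0.05 by limma (18.2%, against 5.78% of all genes), each of them lower: Ifit1, Ifit3, Oas1a and Cmpk2, named after their values were seen. The part of those genes in the value of Cxcl10 was not tested.

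Ccl2, the main monocyte attractant of glia, had 8.84, 8.18 and 8.36 in controls and 8.41, 8.26 and 8.52 in treated cultures. Control 1 was the highest array and control 2 the lowest, and the difference was -0.06 ± 0.17 (SE). Ccl7, a related monocyte attractant, had pair differences of -0.36, 0.05 and 0.13, beside -0.43, 0.08 and 0.16 for Ccl2.

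The other chemokines had log2 differences between -0.12 and 0.20. Ccl5, which attracts T cells, had the highest of these, 0.20 ± 0.19 (SE), with pair 2 turned the other way (-0.16). Ccl4 and Ccl12 were higher in all 3 pairs, with means of 0.13 and 0.11, as was Cxcl1, a neutrophil attractant, with 0.16. Ccl3, Cxcl2 and Cxcl5 had -0.12, -0.09 and -0.12, and Cxcl9 had 0.01. Cx3cl1, the membrane-bound fractalkine by which neurons signal to microglia, had 0.05 ± 0.13 (SE). None of these differences passed the test.

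**Figure D2:**
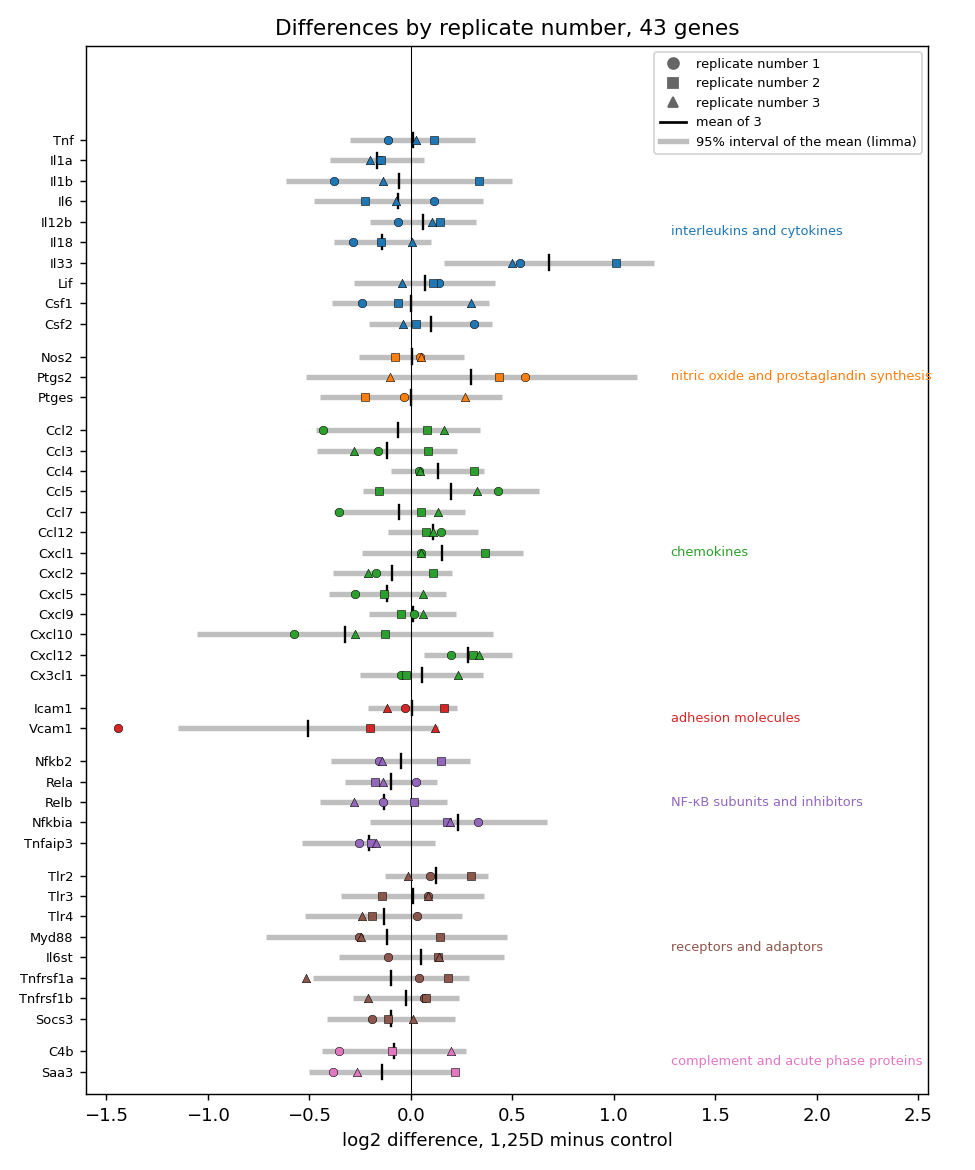
Points are the log2 differences, 1,25D minus control, between arrays of the same replicate number for each of the 43 genes, black ticks their means and grey bars the 95% interval of the mean from the limma fit without the block. The intervals of 2 genes, Il33 and Cxcl12, lie above 0, and the point farthest from 0 is replicate 1 of Vcam1 at -1.44.

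Of the 2 adhesion molecules, which hold leukocytes to vessel walls, neither passed. Vcam1 had 11.10, 10.81 and 10.48 in controls and 9.66, 10.61 and 10.60 in treated cultures. Treated culture 1 stood alone at the bottom, and the other 5 arrays overlapped. The pairs differed by -1.44, -0.20 and 0.12, so the mean difference of -0.51 ± 0.28 (SE, adjusted p = 1.00 by limma, and 0.89 with the block) rested on pair 1. It was -0.19 without treated culture 1 and -0.04 over pairs 2 and 3. In pair 1 astrocyte markers had a median difference of -0.15 and oligodendrocyte lineage markers of -0.27, against 0.00 for endothelial markers. However, 2 of the 11 endothelial markers held identical values in both replicate 1 arrays, and their median is such a value. It is thus no measure of a lack of change. Of the astrocyte and oligodendrocyte lineage markers 0 held identical values. The other marker medians in pair 1 were 0.0035 for microglia and macrophages, 0.0014 for pericytes and smooth muscle and -0.02 for neurons. They were 0.07 for meningeal fibroblasts and 0.09 for other leukocytes. Identical values were held by 2 of 12 neuronal, 1 of 10 pericyte and smooth muscle and 1 of 15 other leukocyte markers. The part of any of these cell types in the Vcam1 value was not tested. Icam1 had 8.36, 8.24 and 8.40 in controls and 8.33, 8.40 and 8.28 in treated cultures, a difference of 0.01 ± 0.10 (SE).

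Of the 5 measured NF-κB subunits and inhibitors 0 passed, with 1 higher mean and 4 lower. Nfkbia encodes IκBα, the inhibitor that 1,25D is known to raise in some immune cells. It had 9.66, 9.32 and 9.19 in controls and 9.99, 9.50 and 9.39 in treated cultures. The treated array was the higher one in each pair, by 0.33, 0.18 and 0.19, while the groups overlapped, with both arrays of replicate 1 above the other 4. The mean was 1.18-fold higher, a log2 difference of 0.23 ± 0.19 (SE, 95% interval -0.20 to 0.67, adjusted p = 1.00 by limma, and 0.76 with the block). With 1 array left out it ran from 0.05 to 0.37.

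Tnfaip3, whose product A20 removes the ubiquitin chains that carry the signal to NF-κB, is the other negative regulator on the list. It had 7.69, 7.38 and 7.72 in controls and 7.44, 7.18 and 7.55 in treated cultures. The treated array was the lower one in each pair, by 0.26, 0.20 and 0.17, and the groups overlapped. The mean was 1.16-fold lower, or -0.21 ± 0.14 on the log2 scale (SE, adjusted p = 1.00 by limma, and 0.82 with the block). The means of the 2 brakes thus lay on opposite sides of 0, and the difference between the genes was not tested.

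Rela, the p65 subunit, had 10.12, 10.10 and 10.15 in controls and 10.15, 9.93 and 10.01 in treated cultures. Treated cultures 2 and 3 lay just below all controls and treated culture 1 beside the highest of them, for a difference of -0.10 ± 0.10 (SE, 95% interval -0.32 to 0.13). Relb and Nfkb2, which form the noncanonical pair, had -0.13 ± 0.13 and -0.05 ± 0.15 (SE).

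Over the whole list of inflammatory genes, 9 members had 1 direction in all 3 pairs (20.9%), against 25.8% of all genes. Those higher in every pair were Il33, Ccl4, Ccl12, Cxcl1, Cxcl12 and Nfkbia, and those lower in every pair Il1a, Cxcl10 and Tnfaip3. The share with 1 direction thus did not stand above that of all genes.

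**Figure D3:**
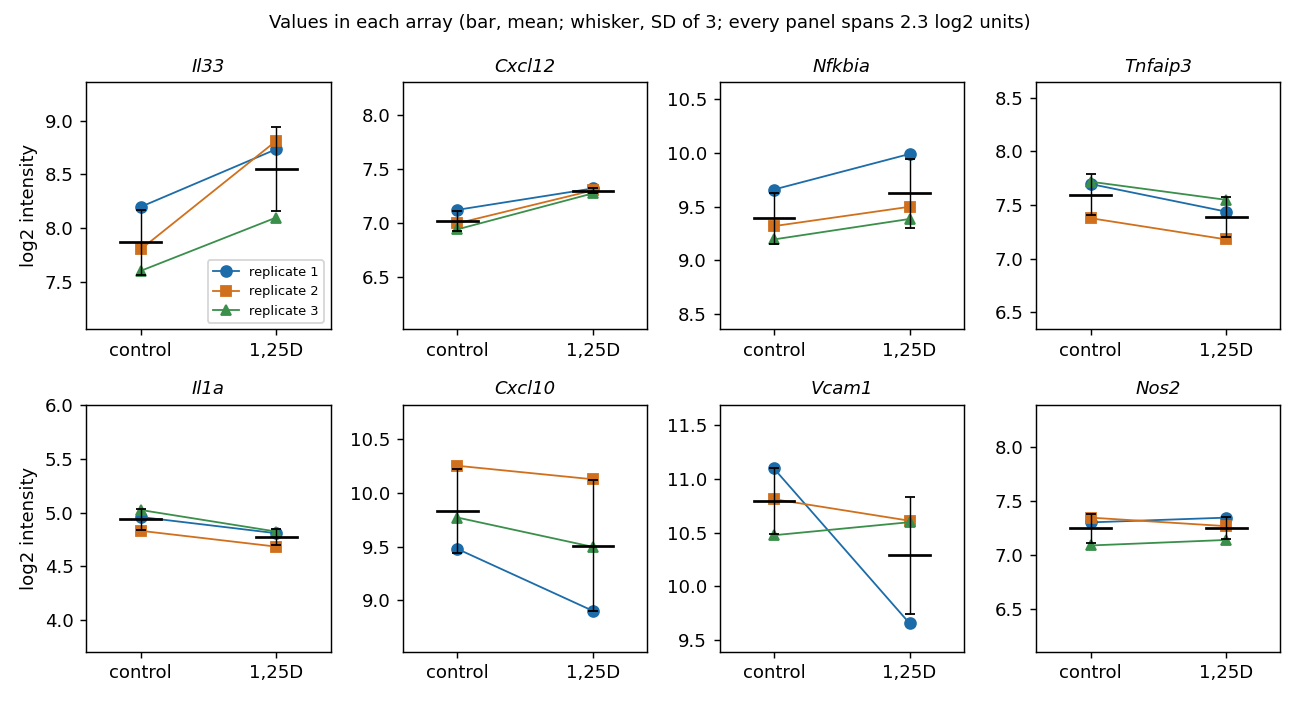
Log2 intensity in each of the 6 arrays for 8 genes; lines join arrays of the same replicate number, bars are group means and whiskers the SD of 3 arrays, and every panel spans the same range. Il33 and Nfkbia are higher and Tnfaip3 lower in each pair, while the steep line of Vcam1 leads to treated culture 1.

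Of the 8 measured receptors and adaptors 0 passed, and the log2 differences lay between -0.13 and 0.13. Il6st encodes gp130, the signalling chain shared by interleukin-6 and LIF. It had 11.99, 12.22 and 11.72 in controls and 11.88, 12.35 and 11.86 in treated cultures, with replicate 2 highest in both groups and a difference of 0.05 ± 0.18 (SE). Tnfrsf1a, the broadly expressed receptor of TNF, had 10.41, 10.03 and 10.56 in controls and 10.45, 10.21 and 10.05 in treated cultures. Its pairs differed by 0.04, 0.18 and -0.52, and the groups overlapped around a difference of -0.10 ± 0.17 (SE). Tnfrsf1b, the receptor of immune and endothelial cells, had -0.02 ± 0.11 (SE).

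Tlr2, a sensor of bacterial lipoproteins, had 0.13 ± 0.11, and Tlr3, which senses double-stranded RNA, 0.01 ± 0.15 (SE). Tlr4, the receptor of lipopolysaccharide, had -0.13 ± 0.17 from intensities within the lowest 25% of genes. Myd88, the adaptor of most Toll-like and IL-1 receptors, had -0.12 ± 0.26, and Socs3, a feedback inhibitor of cytokine signalling, -0.10 ± 0.14 (SE). The complement component C4b and the acute phase protein Saa3 had -0.08 ± 0.15 and -0.14 ± 0.15 (SE), and neither passed.

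Values also differed by replicate number. The term for the replicate number, a check added after the data were seen, had an unadjusted p under 0.05 for 18 members (41.9%), against 29.5% of all genes. After adjustment it passed for 1 member, Cxcl10 (limma, adjusted p = 0.0445, 2.33%), against 1.73% of all genes. The mean of the 2 arrays was highest in replicate 1 for 26 members, in replicate 2 for 11 and in replicate 3 for 6. Myd88 was among the 26, with 9.86 and 9.60 in the arrays of replicate 1 against 8.88 to 9.34 in the other 4. The share of all genes highest in each replicate is not given, so these 3 counts are not read as particular to the members.

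**Figure D4:**
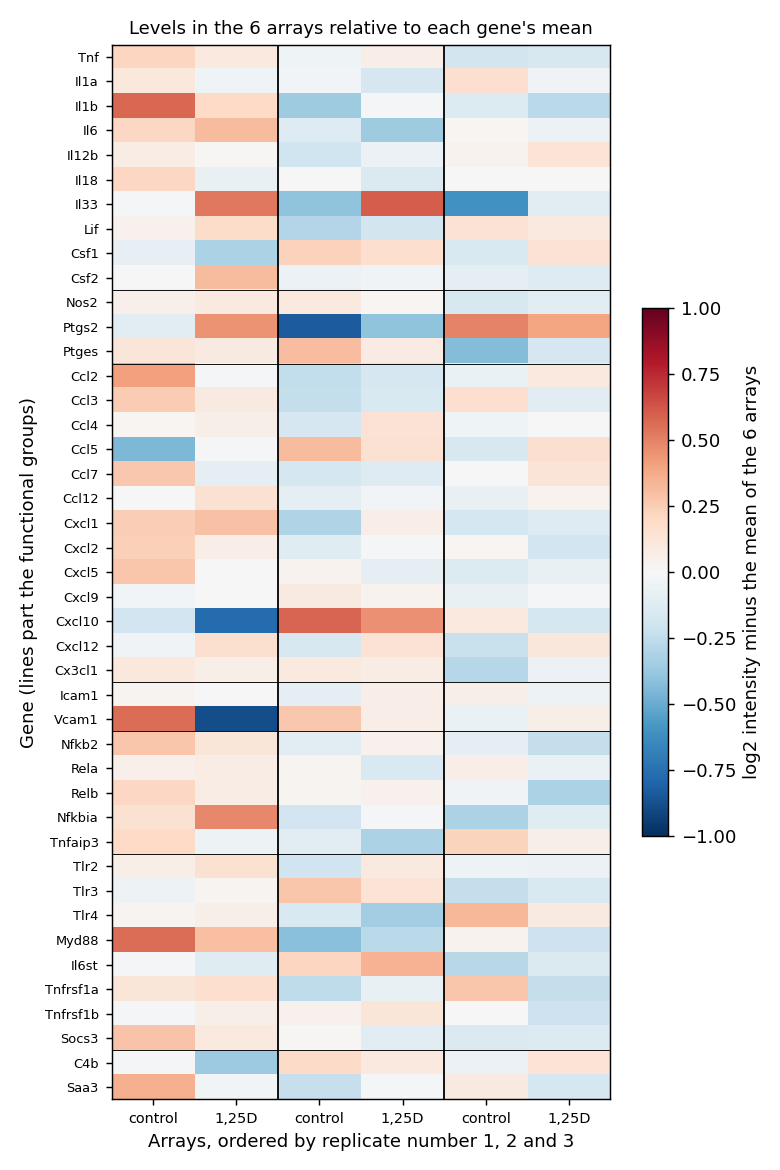
Colour gives the log2 intensity of each of the 43 genes in each array minus that gene's mean over the 6 arrays, with arrays ordered by replicate number and horizontal lines between functional groups. Both arrays of replicate 1 lie above the gene's mean for Myd88, and both arrays of replicate 2 lie above it for Cxcl10 and below it for Ptgs2. The treated array of replicate 1 is dark blue for Vcam1 and Cxcl10.

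The wider pathway was read from 11 lists that held 218 other measured genes, of which 0 passed in either fit. At an unadjusted p under 0.05 there were 9 by limma without the block (4.13%, against 1.48% of all genes) and 25 with it (11.5%, against 5.78%). With the block these were 7 of 21 cytokine receptors and decoys (33.3%), 6 of 23 complement and acute phase genes (26.1%), 4 of 22 interferon-induced genes, 2 of 22 kinases and adaptors (9.09%), and 0 or 1 in each of the other 7 lists. Their median log2 difference was 0.01. The kinases and adaptors that carry the signal to NF-κB (22 genes) had a median of -0.04. Rel, the c-Rel subunit kept in that list, and Birc2, a ubiquitin ligase of the TNF receptor complex, had -0.31 ± 0.10 and -0.20 ± 0.10 (SE), each with all treated arrays below the controls. With Map3k14 (-0.07 ± 0.09, named after its values were seen), 3 of the 22 lay fully below (13.6%, against 1.52% of all genes) and 0 fully above. This was not particular to that list. Fully below lay 2 of 18 other Toll-like receptor genes (11.1%, 0 above) and 2 of 21 cytokine receptors and decoys (9.52%, 1 above). Of all 218 genes, 10 lay fully below (4.59%) and 6 fully above (2.75%, against 2.63% of all genes). Further inhibitors and feedback genes (10 genes) had a median of 0.01, and N4bp1 and Tnip1, both restraints of the pathway, had 0.08 ± 0.11 and -0.05 ± 0.09 (SE). Other Toll-like receptors, co-receptors and inflammasome genes (18 genes) had a median of 0.03, with Cd14, the lipopolysaccharide co-receptor, at -0.30 ± 0.15 and Nod1 at -0.17 ± 0.10 (SE).

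Cytokine receptors and decoys (21 genes) had a median of 0.04. In this list 6 genes were higher and 5 lower in all 3 pairs (52.4% with 1 direction, against 25.8% of all genes), and of the 7 genes at an unadjusted p under 0.05 in the blocked limma fit 2 were higher and 5 lower. Il1rap, the partner chain of the IL-1 receptor, and Il13ra1 had -0.27 ± 0.10 and -0.29 ± 0.10 (SE). Chemokine receptors (15 genes) had a median of 0.06, with Ccr2, the receptor of Ccl2, at 0.32 ± 0.13 and Cx3cr1, that of fractalkine, at 0.19 ± 0.09 (SE). Other cytokines and chemokines (32 genes) had a median of 0.05, with Il23a and Il34 at 0.32 ± 0.10 and 0.17 ± 0.11 (SE). Prostaglandin and leukotriene genes (22 genes) had a median of -0.01, with Ptgfr, a prostaglandin F receptor, at 0.40 ± 0.14 and Pla2g4a, which frees arachidonic acid, at -0.21 ± 0.15 (SE).

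Complement and acute phase genes (23 genes) had a median of -0.01, with Cd59a, a complement inhibitor, at -0.29 ± 0.12 and C1qc at 0.25 ± 0.11 (SE). The JAK-STAT and SOCS list (20 genes) had a median of 0.01, with Cish and Socs2, both feedback inhibitors, at 0.38 ± 0.15 and -0.19 ± 0.11 (SE). In the interferon-induced list, Ifit1 and Oas2 had -0.22 ± 0.11 and 0.28 ± 0.15 (SE). Adhesion molecules of leukocytes and vessels (14 genes) had a median of 0.03, with F11r, a junctional adhesion molecule, at 0.76 ± 0.15 and Cd44 at -0.23 ± 0.15 (SE). F11r had the lowest adjusted p of these genes, 0.72 by limma and 0.092 with the block.

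The markers of cells that make or answer these mediators did not differ past the threshold either (0 of 100 genes in either limma fit, with 2 and 9 at an unadjusted p under 0.05 without and with the block, against 1.48% and 5.78% of all genes). Of 23 measured markers of microglia and macrophages, 14 lay in the lowest 25% of genes, and their summed linear intensity was 3228 to 3384 in controls and 3259 to 3519 in treated cultures. The median difference was 0.02 for these markers, -0.07 for astrocytes, 0.06 for endothelial cells, -0.03 for pericytes and smooth muscle, 0.00 for meningeal fibroblasts, -0.08 for the oligodendrocyte lineage, -0.03 for neurons and 0.08 for other leukocytes. The astrocyte sum was 35672 to 46697 in controls and 35314 to 47380 in treated cultures. Means were lower for 10 of 12 astrocyte markers, against 9375 of all 19938 genes. They were higher for 13 of 15 markers of other leukocytes, against 10563 of all genes. Of these 15 markers, however, 9 lay in the lowest 25% of genes by mean intensity and 0 above the median of all genes. The share of higher means among equally dim genes is not given, so the 13 are not read as more leukocyte RNA. The smallest unadjusted p-values among the microglial markers belonged to C1qc and Cx3cr1, described above. In the other lists they belonged to Aldh1l1 and Fgfr3 (-0.27 and 0.18, astrocytes), Cdh5 and Flt1 (0.17 and -0.10, endothelium), Pdgfrb and Tagln (0.48 and -0.23, pericytes and smooth muscle), Col1a1 and Fn1 (0.42 and -0.24, fibroblasts), Olig1 and Sox10 (-0.28 and 0.08, oligodendrocyte lineage), Rbfox3 and Map2 (-0.34 and -0.29, neurons) and Ly6g and Cd8a (0.21 and 0.11, other leukocytes). The part of changes in cell content in the values of the inflammatory genes was not tested.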

How the data were processed

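Per the submitters' processing notes, the deposited intensity values came from RMA and Affymetrix Expression Console, without versions. The sources used here give no filter or probe set level. The values are linear, from 8.05 to 22019, so log2 was taken. Rows were named through GEO's platform annotation (21789 of 35556 rows with 1 symbol, 1621 with several, 12146 unnamed here). Array medians lay between 7.91 and 7.98 on the log2 scale, and 1514 rows held identical values in both replicate 1 arrays, none of them a member. Of several rows of a gene the brightest over the 6 arrays was kept. Of 334 distinct genes in the other lists 311 were measured, some through current RefSeq symbols.

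Treated and control arrays were compared by lmFit and eBayes (limma 3.58.1, R 4.3.3), treated minus control, with Benjamini-Hochberg adjustment over all 19938 genes and no filter. Fits were tested on simulated data. For arrays their number limits the precision, and RMA gives no detection call. A two-sided exact permutation test of 3 arrays against 3 cannot go below 0.1, so none is given. Deviations from group means correlated at 0.51, 0.65 and 0.46 between arrays of equal replicate number, and the number was therefore taken to pair arrays. This rests on the values, since the labels do not state a shared litter or day. The block is shown beside the main values where it moves a count.

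Members described in full were those passing in either fit, those whose groups do not overlap, those with 1 sign in all pairs and a mean of 0.3 or more, the 5 smallest p, the 5 highest control means, and Nfkbia, Rela, Nos2, Tnf, Il6, Il1b and Ccl2. Ptgs2, Icam1, Ccl7 and Myd88 were added after their values were seen. In other lists the 2 smallest p were named. No measured value was used to pick the members, but members and lists were chosen with earlier results of these data known.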

Additional observations from a re-analysis of the deposited data

How the results depend on the processing

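No member passed in any setting tried: quantile normalisation, median centring, a filter on the lowest 25% of genes, an offset of 16, the mean over rows, an intensity trend, array weights, no moderation, all rows tested, omission of single arrays or of genes with identical replicate 1 values, and the replicate block with all pairs or with 1 pair left out. The count over all genes was 5. It was 4 under quantile normalisation, 4 under median centring and 6 without the genes of identical replicate 1 values. It was 0 without moderation and with all rows tested, and 0 to 2 with 1 array left out. With the replicate block it was 18, and 22 without the genes of identical replicate 1 values. With the block and without pair 1, 2 and 3 it was 40, 3 and 45. The settings for identical values, the count over all rows and single genes with a pair left out were chosen after seeing the data. Members whose groups do not overlap numbered 2, but 1 without the lowest 25% of genes, 3 under quantile normalisation and 3 to 7 with 1 array left out. Groups of fewer arrays separate more readily, and the share of all genes in these settings is not given. The higher counts are therefore not read as a result about the members. The members' median stayed between -0.07 and 0.03 in all settings run for it.

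The sign of the difference turned for 4 of the 43 members under quantile normalisation, 6 under median centring, 5 with array weights, 1 with the offset, 3 to 10 with 1 array left out, and 9, 4 and 8 with the block and without pair 1, 2 and 3. Among the members described in full by the rule, signs turned under quantile normalisation for Csf1 (0.0080), Nos2 (-0.014) and Tnf (-0.028), under median centring for Nos2 (-0.018) and Tnf (-0.014), and with array weights for Nos2 (-0.014) and Tnf (-0.0082). With 1 array left out the ranges were -0.087 to 0.16 for Csf1, -0.074 to 0.061 for Nos2, -0.080 to 0.12 for Tnf, -0.24 to 0.10 for Il6, -0.25 to 0.21 for Il1b, -0.20 to 0.13 for Ccl2, -0.11 to 0.17 for Il6st and -0.25 to 0.018 for Tnfrsf1a. With the replicate block, signs turned without pair 1 for Csf1 (0.12), Nos2 (-0.014), Il1b (0.099) and Ccl2 (0.12), without pair 2 for Csf1 (0.029), Tnf (-0.043) and Il6 (0.022), and without pair 3 for Tnfrsf1a (0.11), Nos2 (-0.018) and Tnf (-2.3e-06). The cause of these changes was not tested. With all pairs the block changed no call of a member.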
